A study of Mus musculus with 8 samples.

Results

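The mouse zinc finger genes whose symbols run from Zfp900 to Zfp999 were followed in lung tumors with and without a guide RNA against Setd2. The set comprised the protein-coding genes of the count table whose identifiers carry such a symbol in GENCODE release M21, which gave 63 of 48709 genes. RNA was measured in 8 tumors, 4 labelled K-Ctrl and 4 labelled K-Setd2KO. All tumors arose in mice of a mixed B6J/129S4vJae background whose lung tumors depend on delivery of Cre. Tumors were started through the airway with a lentiviral vector that delivers Cre, Cas9 and a single guide RNA, so Cas9 and Cre were shared by both groups. The guide matched GFP, a sequence that these mice lack, in K-Ctrl and matched Setd2 in K-Setd2KO. Tumors were matched by histology, and the study calls the K-Setd2KO tumors low grade adenomas where the labels say adenocarcinoma. Mice were of both sexes, and their tumors were begun no later than 20 weeks of age. The guide acts in whichever cells the virus enters, and a bulk tumor also holds uninfected host cells. The labels do not say whether each tumor came from its own mouse, so p-values measure the spread between these tumors. One protocol field speaks of cell lines while the design text speaks of frozen tumors, and this was not resolved.

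C2H2 zinc finger proteins bind DNA through tandem fingers, each folded around a zinc ion by a pair of cysteines and a pair of histidines. Many mouse members also carry a KRAB box, which recruits Trim28 (KAP1). Trim28 in turn brings Setdb1, a histone H3 lysine 9 methyltransferase, HP1 proteins and histone deacetylases, and the best known targets of this system are retroelements. KRAB zinc finger genes arose by repeated tandem duplication and lie in clusters of near copies. Setd2 writes trimethylation on histone H3 lysine 36 across transcribed genes, and clusters of zinc finger genes are known for carrying lysine 9 methylation over their own 3′ exons.

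The set fitted that description. A KRAB core pattern was found in the conceptual translation of 58 of the 63 genes (92.06%), against 111 of the 302 other numbered Zfp genes (36.75%). Zfp952, Zfp956, Zfp957, Zfp972 and Zfp974 lacked the pattern. At least 1 finger was found in 60 genes, with a median of 11 fingers and a maximum of 21 in Zfp974. No finger was found in Zfp935, Zfp957 and Zfp972, and proteins ran from 139 residues in Zfp972 to 794 in Zfp945. The genes lay on 12 chromosomes. When neighbours less than 2 Mb apart were joined, 7 clusters held more than 1 gene, of which the largest were 16 genes on chromosome 4, 10 on chromosome 2 and 10 on chromosome 17. Transcripts of the genes tested had a median GC content of 38.1%, below the 45.7% of other numbered Zfp genes and the 49.5% of all genes tested.

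The chromosome 4 and chromosome 2 clusters are those the results turn on, and their promoters show how closely their genes are related. The promoters below are RefSeq sequences on GRCm38.p6, from 250 bases before to 50 bases after the start, 5′ to 3′ on the strand of the gene. Promoters were matched for 51 of the 63 genes, and the genes shown were chosen after their values were seen. The window of Zfp984 lies at chr4:147809739-147810038 (minus strand), that of Zfp979 at chr4:147642459-147642758 (minus strand) and that of Zfp933, at the edge of the same cluster, at chr4:147848369-147848668 (minus strand). Capitals mark a run of 16 bases held by Zfp984 and Zfp979 and not by Zfp933.
Zfp984: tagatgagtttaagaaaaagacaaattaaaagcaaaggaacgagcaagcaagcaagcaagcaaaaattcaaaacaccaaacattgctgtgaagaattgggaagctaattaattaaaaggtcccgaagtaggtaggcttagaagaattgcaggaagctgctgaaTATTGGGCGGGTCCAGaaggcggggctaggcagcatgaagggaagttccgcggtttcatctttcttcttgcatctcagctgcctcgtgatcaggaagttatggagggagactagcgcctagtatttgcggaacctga
Zfp979: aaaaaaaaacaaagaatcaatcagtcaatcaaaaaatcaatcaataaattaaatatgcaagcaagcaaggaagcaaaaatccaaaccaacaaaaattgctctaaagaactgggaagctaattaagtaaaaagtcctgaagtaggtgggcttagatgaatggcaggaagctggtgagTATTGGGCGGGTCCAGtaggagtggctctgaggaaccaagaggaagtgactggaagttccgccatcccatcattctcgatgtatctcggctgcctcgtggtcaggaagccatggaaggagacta
Zfp933: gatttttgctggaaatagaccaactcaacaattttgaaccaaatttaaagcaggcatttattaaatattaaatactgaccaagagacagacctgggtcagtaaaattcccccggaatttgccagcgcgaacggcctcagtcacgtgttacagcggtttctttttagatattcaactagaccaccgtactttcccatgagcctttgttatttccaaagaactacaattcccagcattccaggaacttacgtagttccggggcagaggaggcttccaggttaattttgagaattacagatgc

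The run TATTGGGCGGGTCCAG, picked as the longest one shared by Zfp984, Zfp979 and Zfp985, occurred in 9 of 32851 promoters (0.027%), searched on both strands. These were Zfp979, Zfp980, Zfp982, Zfp984, Zfp985 and Zfp988 of the set together with Gm13212, Rex2 and Zfp600. The aligned promoters of Zfp984 and Zfp979 were identical at 221 of 272 positions (81.3%), and those of Zfp979 and Zfp985 at 260 of 284 (91.5%). Zfp990, Zfp991 and Zfp992 had no promoter matched. The share of a run picked from related promoters gives no test.

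On chromosome 2 the promoter windows lie at chr2:178078376-178078675 (minus strand) for Zfp931, chr2:177464492-177464791 (plus strand) for Zfp970 and chr2:178023034-178023333 (plus strand) for Zfp971. Capitals mark the longest run shared by the promoters shown, of 41 bases.
Zfp931: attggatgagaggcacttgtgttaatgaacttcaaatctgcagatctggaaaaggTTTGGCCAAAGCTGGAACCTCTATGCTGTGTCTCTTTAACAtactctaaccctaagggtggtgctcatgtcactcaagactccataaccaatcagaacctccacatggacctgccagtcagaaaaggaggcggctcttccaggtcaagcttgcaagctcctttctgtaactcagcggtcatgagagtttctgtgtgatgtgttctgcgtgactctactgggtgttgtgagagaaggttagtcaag
Zfp970: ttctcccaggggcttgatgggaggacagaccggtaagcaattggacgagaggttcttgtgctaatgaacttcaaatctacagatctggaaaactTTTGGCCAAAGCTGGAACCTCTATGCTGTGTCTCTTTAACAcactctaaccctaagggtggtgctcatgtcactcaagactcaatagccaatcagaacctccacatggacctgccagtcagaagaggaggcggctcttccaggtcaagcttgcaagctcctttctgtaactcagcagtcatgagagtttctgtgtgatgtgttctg
Zfp971: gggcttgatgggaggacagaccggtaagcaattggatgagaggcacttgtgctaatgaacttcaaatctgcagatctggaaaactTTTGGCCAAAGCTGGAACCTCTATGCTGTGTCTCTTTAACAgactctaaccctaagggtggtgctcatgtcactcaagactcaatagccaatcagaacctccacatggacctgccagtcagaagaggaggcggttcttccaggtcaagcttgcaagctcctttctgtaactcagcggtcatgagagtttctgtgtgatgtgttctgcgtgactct

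That run was in 12 of 32851 promoters (0.037%), of which 8 belonged to the set (Zfp931, Zfp965, Zfp966, Zfp967, Zfp968, Zfp970, Zfp971 and Zfp973) and the others were Gm14288, Gm14295, Gm14325 and Gm14440. Pairwise identity of the 3 promoters shown was 95.4% to 97.6%. Over the whole set, CCAAT was present on either strand in 39 of the 51 promoters, against 37.4% of all promoters, and overlaps the chromosome 4 run in its reverse complement. TATAAA was present in 0 of the 51, against 13.6% of all promoters. Near copies among the 51 are not independent of each other, and promoters of other Zfp genes were not counted apart.

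Related genes can also share transcript sequence, where a read has no unique place. Transcripts were divided into windows of 75 bases and each window was looked for in every other gene. That length is the one described for single-end reads of other tumors in the study, while these libraries are labelled paired-end and their read length is not given in the sources used here. The median share of windows also found in another gene was 61.3% for the 20 genes that did not pass the filter on low counts and 3.08% for the 43 that did. Promoter likeness did not go with shared transcript in every gene: Zfp985 shared 4.36% of its windows, Zfp931 12.6% and Zfp979 23.6%. Every window of Zfp967 and Zfp969 was also present in Zfp968. These 3 genes, Zfp965 and Zfp987 had 0 counts in all 8 tumors. The remaining 15 untested genes had up to 79 counts over the 8 tumors, and 12 of the 20 had no more than 3 counts in any tumor. Of the 20 untested genes, 7 lay in the chromosome 2 cluster and 9 in the chromosome 4 cluster, while all 10 genes of the chromosome 17 cluster were tested, with at most 9.76% of windows shared. A count of 0 in such a gene does not separate a silent gene from one whose reads could not be placed. The plot of shared sequence against counts shows both groups of genes.

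**Figure D1:**
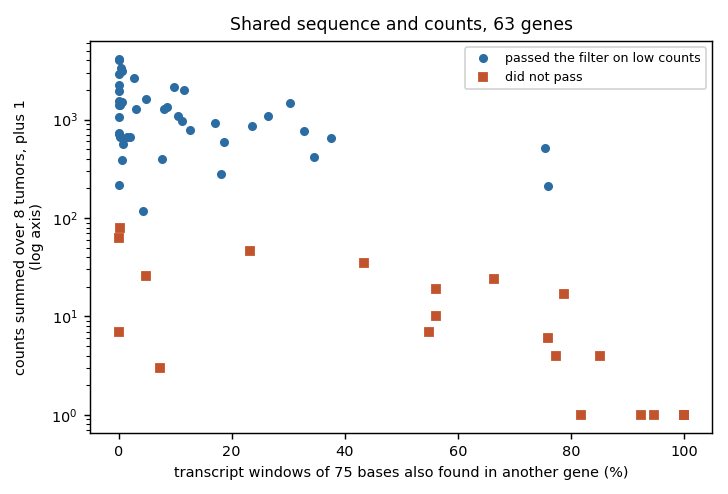
Each point is 1 of the 63 genes; the x axis gives the percentage of its transcript windows of 75 bases that also occur in another gene and the y axis its counts summed over 8 tumors plus 1, on a log axis. Of the 20 genes that did not pass the filter (squares), 13 share more than 50% of their windows, as do 2 of the 43 that passed (circles).

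The shallowest library, K-Setd2KO replicate 4, held 5806599 counts and the deepest, K-Ctrl replicate 3, held 21290402. The limit that a count of 0 allows, 3 counts, equalled 0.138 to 0.513 CPM, which is a count divided by the scaled size of its library. Such limits cover counting error only. Setd2 itself was at 153, 138, 132 and 138 CPM in K-Ctrl and at 145, 121, 124 and 153 CPM in K-Setd2KO, a log2 fold change of -0.05 ± 0.12 (SE). The exact two-sided permutation p was 0.6, where 0.0286 is the smallest possible. Cas9 cuts the gene at a short site, and the count of the Setd2 transcript does not report the loss of the protein. Markers of other cells differed between the groups: 10 of 12 leukocyte genes were called lower in K-Setd2KO, and their summed level was 1324 to 2297 CPM in K-Ctrl against 700 to 916 CPM in K-Setd2KO. Lower calls were also made for 5 of 8 macrophage, 1 of 7 T cell, 0 of 5 B cell, 3 of 10 endothelial and 1 of 7 fibroblast genes. Over all genes tested, 7.74% were called lower and 4.97% higher. Log2 fold changes were negative for 7 of 7 T cell genes (median -1.66), 4 of 5 B cell genes (-2.14), 10 of 10 endothelial genes (-1.68) and 6 of 7 fibroblast genes (-0.87). Genes listed for alveolar type 2 epithelium summed to 42858 to 64300 CPM in K-Ctrl and 51278 to 72963 CPM in K-Setd2KO. Of 12, 3 were called higher (Sftpb at 1.09, Epcam at 0.90 and Krt18 at 0.84) and 1 lower (Napsa at -1.60). Sftpc and Sftpa1, the most abundant of the list, had log2 fold changes of -0.003 and -0.03. No list had a marker at 0 in all tumors. Fewer cells of a type and less RNA per cell cannot be told apart in bulk tumors, and the part of cell makeup in the zinc finger values was not tested.

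Among the members only Zfp984 passed the test. Of 43 genes tested, 0 were called higher and 1 lower at an adjusted p under 0.05 (edgeR quasi-likelihood test, Benjamini-Hochberg over all 14929 genes tested), where 4.97% of all genes were called higher and 7.74% lower. Log2 fold changes were negative for 26 and positive for 17 genes, with a median of -0.15 and a range of -3.08 to 0.84. In single tumors the median of the members against the K-Ctrl mean ran from -0.19 to 0.29 in K-Ctrl and from -0.41 to 0.12 in K-Setd2KO. The groups overlapped through K-Setd2KO replicate 3, at 0.12. K-Setd2KO replicates 1, 2 and 4, at -0.30, -0.39 and -0.41, lay below every K-Ctrl tumor. The median log2 fold change of the set was -0.37 without K-Setd2KO replicate 3. It was -0.07 without K-Ctrl replicate 2 and -0.06 with length and GC trends removed. All genes tested had a median of 0.03, and 0.07 was the median of the 272 other numbered Zfp genes, of which 15 were called higher and 9 lower. At an unadjusted p under 0.05, 1 member was higher and 9 were lower (20.9%), against 13.6% and 16.3% of all genes. The median SE of the members was 0.31 on the log2 scale, against 0.24 for all genes. DESeq2, the tool the study used, called 6 members lower (Zfp931, Zfp948, Zfp970, Zfp971, Zfp979 and Zfp984) and 0 higher, with 12.5% of all genes called lower. The plot of fold changes in chromosome order shows the members side by side.

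**Figure D2:**
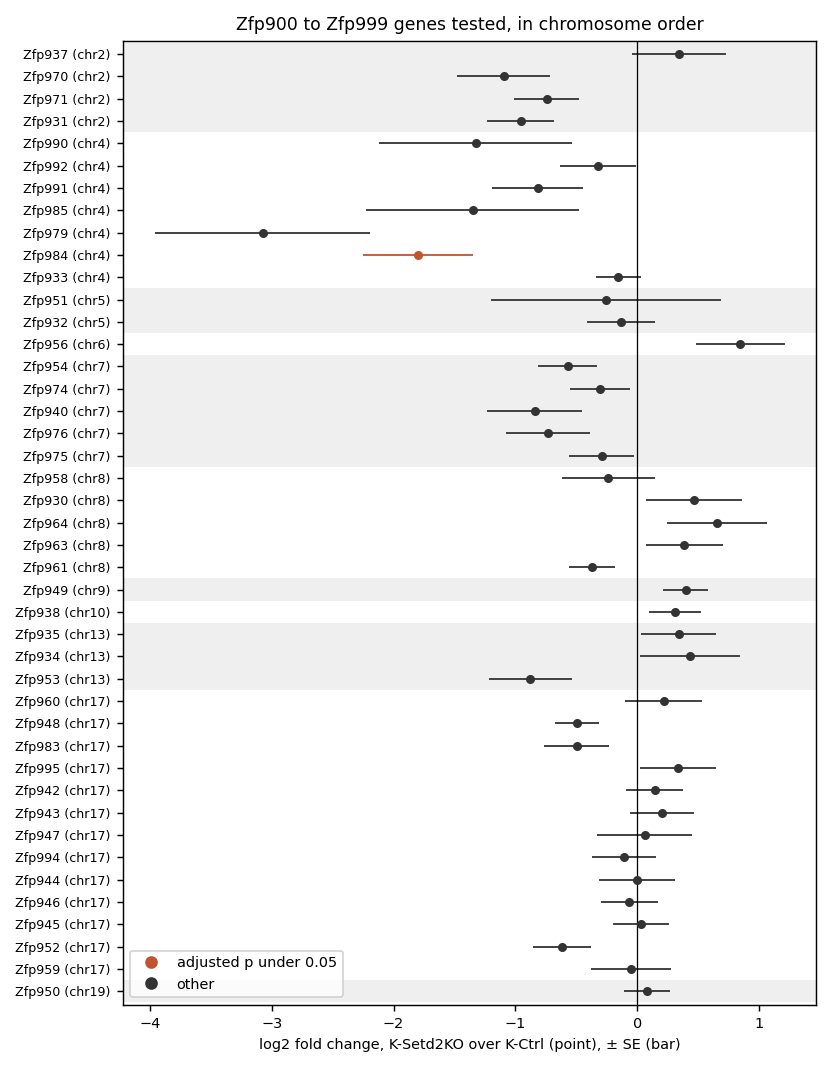
Points give the log2 fold change of K-Setd2KO over K-Ctrl for the 43 genes tested and bars its SE, in chromosome order with grey bands marking alternate chromosomes. The 7 genes on chromosome 4 and 3 of the 4 on chromosome 2 lie below 0, and Zfp984 is the only gene with an adjusted p under 0.05.

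Of the 10 most abundant members by CPM, none was called. Zfp945, with 18 fingers, was at 37.5 ± 9.09 CPM in K-Ctrl tumors and 38.3 ± 10.9 CPM in K-Setd2KO tumors (mean ± SD, n = 4 per group). Zfp950 on chromosome 19 was at 37.4 ± 7.55 and 39.5 ± 8.13 CPM. Zfp943, Zfp946, Zfp930, Zfp942, Zfp949, Zfp994, Zfp933 and Zfp990 followed, and the log2 fold changes of all but Zfp990 were within 0.5 of 0. Zfp949, whose groups did not overlap, and Zfp930, whose K-Setd2KO mean rests on a single tumor, are described below with their values. Per kilobase of summed exon length the order changed, with Zfp935 at 11.4 CPM per kb, Zfp946 at 8.01, Zfp938 at 6.13 and Zfp943 at 5.96, down to 0.384 for Zfp985. Zfp935 is a short gene in which no finger was found.

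In the chromosome 4 cluster, between 145510759 and 147848366 on GRCm38, all 7 genes tested had a lower mean in K-Setd2KO, and their median log2 fold change was -1.33. That median is the value of Zfp990, a gene with a wide SE. The cluster median was -0.81 without K-Ctrl replicate 3, -0.89 without K-Ctrl replicate 2 and -0.94 in limma voom. It was -1.68 without K-Ctrl replicate 4, and -0.36 over the 3 genes left when 10 counts were required in every tumor. Zfp984 (ENSMUSG00000078495.10, 147753974 to 147809788, minus strand, 11 fingers and a KRAB pattern) was at 6.46, 12.4, 6.14 and 10.98 CPM in K-Ctrl. In K-Setd2KO it was at 3.801, 2.98, 0.831 and 2.57 CPM. Every K-Setd2KO tumor lay below every K-Ctrl tumor. The log2 fold change was -1.80 ± 0.45 (SE), with an adjusted p of 0.0328 in edgeR. Leaving out any of the K-Ctrl tumors or K-Setd2KO replicate 4 ended the call, with adjusted p in edgeR from 0.0520 to 0.0800 and log2 fold changes from -1.95 to -1.61. Removing length and GC trends also ended it, at -1.68 with an adjusted p of 0.0505 in edgeR. Zfp984 shared 37.5% of its windows with other genes, 35.9% with Gm13212, and overlaps the long noncoding RNA Gm20707 on the same strand. Both of these were also lower in mean: Gm20707 was called lower, at -2.08 ± 0.54, a low gene that passed the filter through its K-Ctrl tumors and whose call is therefore no support, and Gm13212 was at -1.43 ± 0.45 with an adjusted p of 0.0688 in edgeR. Whether reads of 1 of these genes were counted for another was not tested.

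Zfp979 had the widest difference of the set and did not pass the test. It was at 21.9, 27.4, 2.08 and 3.48 CPM in K-Ctrl, and at 3.08, 1.30, 1.20 and 0.513 CPM in K-Setd2KO. K-Ctrl replicates 1 and 2 stood far above the other 6 tumors, and the groups overlapped. The log2 fold change was -3.08 ± 0.89 (SE), with an adjusted p of 0.0526 in edgeR, 0.302 in limma voom, 0.000904 in DESeq2 and 0.0499 in edgeR with upper-quartile factors. Without K-Ctrl replicate 3 or 4 it passed (adjusted p = 0.0426 and 0.0370 in edgeR). Zfp990, with 13 fingers, also varied widely, at 17.1, 26.6, 43.4 and 3.75 CPM in K-Ctrl and at 3.18, 14.2, 16.5 and 2.05 CPM in K-Setd2KO. Its log2 fold change of -1.33 ± 0.79 did not pass (adjusted p = 0.296 in edgeR). In both groups replicate 4 was the lowest for Zfp990.

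The other members of this cluster were low or even. Zfp985 was at 0.178 to 4.20 CPM in K-Ctrl and 0.205 to 1.15 CPM in K-Setd2KO. Zfp991 and Zfp992 had log2 fold changes of -0.82 ± 0.37 and -0.33 ± 0.31, and Zfp991 shared 75.9% of its windows with other genes. Zfp933 was at 18.3, 23.1, 18.2 and 14.3 CPM in K-Ctrl and at 17.4, 16.9, 18.7 and 13.2 CPM in K-Setd2KO, a log2 fold change of -0.15 ± 0.19. Among untested members, Zfp980 had 5, 10, 3 and 0 counts in K-Ctrl and 0 in each K-Setd2KO tumor. The 5 other genes tested within the span were Gm20707 and Gm13212, whose lower values are given above, a pair of other long noncoding RNAs and a ribosomal pseudogene. Their median log2 fold change was -0.01, and the 893 other genes tested on chromosome 4 one of 0.01. When 10 counts were required in every tumor, Zfp984 was no longer tested, having 9 counts in K-Setd2KO replicate 3.

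**Figure D3:**
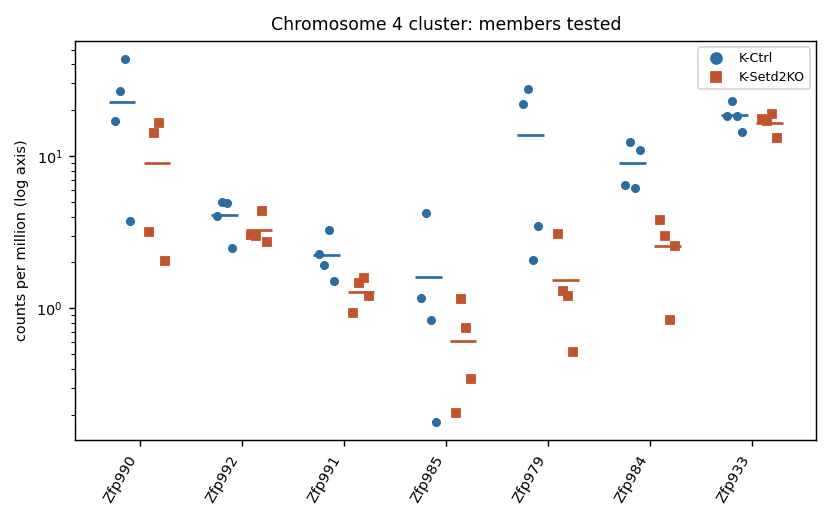
CPM in each tumor (log axis) for the 7 tested genes of the chromosome 4 cluster, circles for K-Ctrl, squares for K-Setd2KO and bars for group means. Only for Zfp984 do the groups separate, while Zfp985, Zfp979 and Zfp990 spread more than 10-fold among K-Ctrl tumors.

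In the chromosome 2 cluster, between 175372436 and 178078476, the 3 genes tested were lower in mean in K-Setd2KO and none was called in the edgeR fit used throughout. Zfp931, with 7 fingers, was at 9.36, 12.02, 8.73 and 7.23 CPM in K-Ctrl and at 3.24, 4.44, 6.37 and 5.31 CPM in K-Setd2KO. The groups did not overlap. Its log2 fold change was -0.96 ± 0.27 (SE), with an adjusted p of 0.0506 in edgeR, 0.0389 in limma voom and 0.00858 in DESeq2. Within edgeR it passed with RLE factors (adjusted p = 0.0496) and with 10 counts required in every tumor (0.0380, there the only member called). It also passed with length and GC trends removed (0.0269) and without K-Ctrl replicate 4 (0.0481). In edgeR it did not pass with a replicate block (adjusted p = 0.103), a sex term (0.0958) or no filter on low counts (0.0752). Nor did it pass without K-Ctrl replicate 1, 2 or 3 (0.109, 0.125 and 0.107). Zfp970, with 14 fingers, was at 20.3, 16.3, 20.8 and 10.9 CPM in K-Ctrl and at 4.88, 9.64, 13.2 and 4.11 CPM in K-Setd2KO, a log2 fold change of -1.10 ± 0.38 (adjusted p = 0.0905 in edgeR). Zfp971, with 12 fingers, was at 7.33, 10.8, 9.56 and 5.98 CPM in K-Ctrl and at 5.55, 3.75, 5.999 and 4.79 CPM in K-Setd2KO, at -0.75 ± 0.27 (adjusted p = 0.0965 in edgeR). In these genes single tumors of the groups overlapped, K-Ctrl replicate 4 being the lowest control in each. Zfp970 and Zfp971 shared 30.4% and 32.8% of their windows with other genes and Zfp931 12.6%.

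The 9 other genes tested within the span, all uncharacterized protein-coding genes with Gm symbols, also had lower means in K-Setd2KO. Their median log2 fold change was -0.94 and 0 were called. At an unadjusted p under 0.05, Gm14305, Gm14412, Gm14403 and Gm14325 passed (edgeR), where 16.3% of all genes passed as lower. Gm14412 and Gm14322 are low genes that passed the filter through their K-Ctrl tumors, so their lower values are no support. The 1125 other genes tested on chromosome 2 had a median of 0.03. Zfp937, which lies apart from the cluster on the same chromosome, was at 0.34 ± 0.38. Genes of the cluster share sequence and are not independent of each other.

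**Figure D4:**
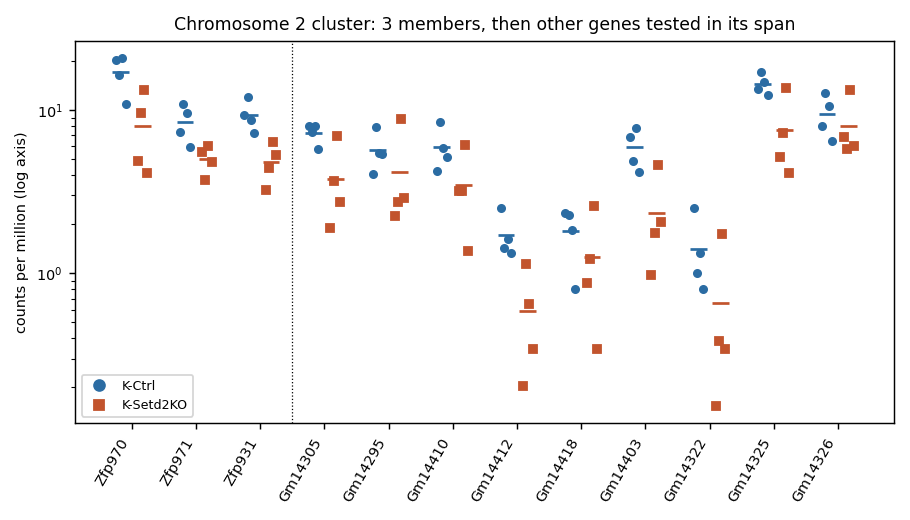
CPM in each tumor (log axis) for the 3 tested members of the chromosome 2 cluster, left of the dotted line, and the 9 other genes tested in its span. All 12 genes have a lower K-Setd2KO mean (bars), and the groups separate for Zfp931 and Gm14412 only. Gm14412 and Gm14322 are low genes that passed the filter through their K-Ctrl tumors, so their lower values are no support.

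The chromosome 17 cluster, between 21567046 and 22867134, showed no common direction. Of its 10 genes, 6 had positive and 4 negative log2 fold changes, with a median of 0.01 and a range of -0.50 to 0.33. Zfp948, with 15 fingers, was at 15.9, 14.9, 19.5 and 13.9 CPM in K-Ctrl and at 10.9, 9.56, 11.5 and 13.7 CPM in K-Setd2KO. Its groups did not overlap, though the nearest tumors lay close together, and the log2 fold change of -0.50 ± 0.18 did not pass (adjusted p = 0.104 in edgeR, 0.0481 in DESeq2). Without K-Setd2KO replicate 3 the median of the cluster was -0.31.

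Smaller clusters went either way with no call. On chromosome 8, Zfp930, Zfp964 and Zfp963 had positive log2 fold changes of 0.47 ± 0.39, 0.65 ± 0.41 and 0.39 ± 0.31. Zfp964 was at 1.03 with a sex term, and the median of this cluster was 0.27 without K-Setd2KO replicate 3. Zfp930 was at 63.9 CPM in K-Setd2KO replicate 3 and at 20.3 to 21.9 CPM in the other K-Setd2KO tumors, within the 16.6 to 29.3 CPM of K-Ctrl, and without replicate 3 its log2 fold change was -0.12. On chromosome 13, Zfp935 and Zfp934 were at 0.34 ± 0.31 and 0.43 ± 0.41. Leaving out single tumors moved Zfp935 from 0.19 (without K-Ctrl replicate 4) to 0.53 (without K-Setd2KO replicate 2) and Zfp963 from 0.23 (without K-Ctrl replicate 2) to 0.62 (without K-Ctrl replicate 1). On chromosome 7, Zfp976 and Zfp975 were at -0.73 ± 0.34 and -0.29 ± 0.26, and Zfp974 and Zfp940 at -0.31 ± 0.25 and -0.84 ± 0.39. Zfp977, next to Zfp976, did not pass the filter, with 11, 16, 30 and 10 counts in K-Ctrl and 6, 1, 5 and 0 in K-Setd2KO. Scaled to depth, its groups did not overlap (0.677 to 1.38 CPM against 0 to 0.461 CPM).

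Groups separated for 7 of the 43 genes tested, 2 higher and 5 lower in K-Setd2KO, where 9.06% of all genes tested separated upwards and 11.2% downwards. The lower genes were Zfp931, Zfp948, Zfp952, Zfp954 and Zfp984. Zfp952 on chromosome 17 was at 13.7, 21.4, 13.6 and 16.5 CPM in K-Ctrl and at 13.3, 7.80, 12.5 and 8.73 CPM in K-Setd2KO, a log2 fold change of -0.62 ± 0.24. Zfp954 on chromosome 7 was at 8.13, 7.23, 6.37 and 6.60 CPM against 4.67, 5.28, 5.72 and 3.25 CPM, at -0.57 ± 0.24. The higher genes were Zfp956 and Zfp949. Zfp956 on chromosome 6 was at 5.23, 5.04, 4.57 and 5.18 CPM in K-Ctrl and at 6.63, 5.97, 17.2 and 6.16 CPM in K-Setd2KO, with a log2 fold change of 0.84 ± 0.37 that fell to 0.32 without K-Setd2KO replicate 3. The 838 other genes tested on chromosome 6 had a median log2 fold change of 0.27. Zfp949 on chromosome 9 was at 19.0, 17.1, 19.7 and 16.0 CPM and 21.4, 21.3, 31.8 and 19.9 CPM, at 0.40 ± 0.18, or 0.22 without K-Setd2KO replicate 3. Of these 7 genes only Zfp984 passed the test.

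K-Setd2KO replicate 3 stood apart from the other K-Setd2KO tumors in this set. It had the highest level of the 4 K-Setd2KO tumors in 30 of the 43 genes, against 25.6% of all genes tested and 45.6% of the other numbered Zfp genes. It was the highest of all 8 tumors in 18 of the 43, against 17.4% of all genes. The chromosome 2 and chromosome 4 clusters were below the K-Ctrl mean in it, by cluster medians of -0.44 and -0.39 on the log2 scale, values that K-Ctrl replicate 4 also reached (-0.45 and -0.64), while the chromosome 8 and chromosome 17 clusters were above, at 1.24 and 0.62. Without this tumor the median log2 fold change of the other numbered Zfp genes was -0.02, and Zfp984 was still the only member called (adjusted p = 0.0445 in edgeR). By Xist and Y-linked counts K-Setd2KO replicate 3 was the only male tumor of its group and K-Ctrl replicate 2 the only female tumor of its own. With sex as a term the median log2 fold change of the set was -0.19, and Zfp984 was still the only member called, at -2.51 (adjusted p = 0.0166 in edgeR). K-Ctrl replicate 2 was the highest of all tumors in 12 of the 43 genes, against 12.9% of all genes. K-Setd2KO replicate 4, the shallowest library, was the lowest in 14, and the share of all genes lowest in it was not counted.

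**Figure D5:**
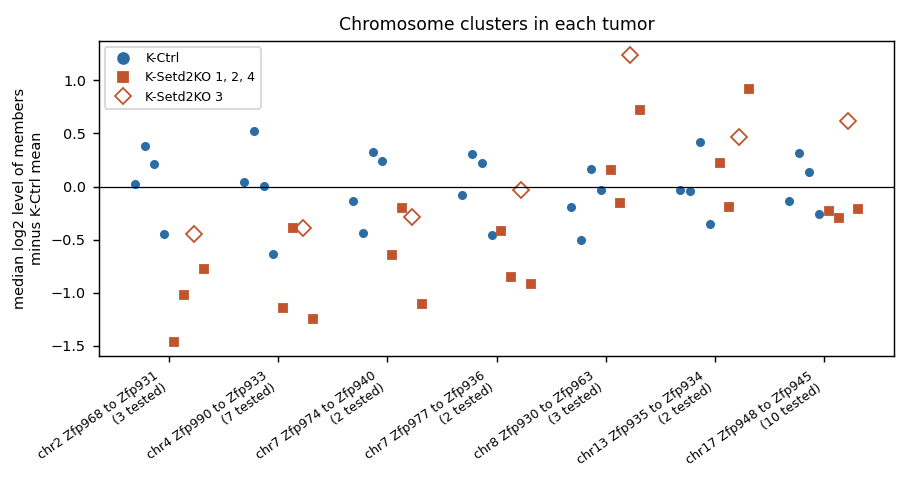
For each of the 7 clusters, the median over its tested genes of the log2 level minus the K-Ctrl mean, with 1 point per tumor: circles for K-Ctrl, squares for K-Setd2KO replicates 1, 2 and 4, and an open diamond for K-Setd2KO replicate 3. That tumor lies at 1.24 in the chromosome 8 cluster and at -0.44 in the chromosome 2 cluster.

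The partners through which KRAB proteins act were read from a list of their genes. Of 29 corepressor and heterochromatin genes tested, 1 was called higher and 1 lower, where 4.97% and 7.74% of all genes were, and the median log2 fold change was 0.05. DESeq2 called 6 of the 29, where it called 8.89% of all genes higher and 12.5% lower, and the fit with length and GC trends removed also called 6, where it called 5.71% and 7.96%. Cbx3, which encodes HP1 gamma, was at 55.1, 47.4, 60.7 and 57.6 CPM in K-Ctrl and at 97.8, 61.3, 109 and 112 CPM in K-Setd2KO. The groups did not overlap and Cbx3 rose by 0.79 ± 0.19 on the log2 scale (adjusted p = 0.0297 in edgeR). Cbx3 lies on chromosome 6, where the 838 other genes tested beside Zfp956 had medians of 0.33, 0.32 and 0.38 against the K-Ctrl mean in K-Setd2KO replicates 1, 3 and 4 and of -0.03 in replicate 2, and 15.4% were called higher. The part of that shift in the Cbx3 value was not tested. The call was lost without K-Ctrl replicate 1, 2 or 3 and without K-Setd2KO replicate 1, 3 or 4, with log2 fold changes of 0.69 to 0.83 and adjusted p of 0.0603 to 0.0759 in edgeR. Hells, a chromatin remodeler needed for DNA methylation of repeats, was at 18.6, 22.8, 15.5 and 20.6 CPM in K-Ctrl and at 7.96, 8.41, 10.6 and 10.95 CPM in K-Setd2KO, and had a log2 fold change of -1.03 ± 0.19 (adjusted p = 0.0124 in edgeR). Among genes that did not pass, chosen after their values were seen, the maintenance DNA methyltransferase Dnmt1 was at -0.50 ± 0.15 (adjusted p = 0.0515 in edgeR) and Pphln1 at -0.54 ± 0.16 (0.0599), and the groups of both did not overlap. Uhrf1, which guides Dnmt1 to newly copied DNA, was at -0.88 ± 0.33 (adjusted p = 0.109 in edgeR), and its groups overlapped. Dnmt3a and Dnmt3b were at -0.17 ± 0.14 and 0.02 ± 0.34 (adjusted p = 0.441 and 0.972 in edgeR). The remodeler Chd4, on chromosome 6 like Cbx3, was at 0.45 ± 0.14 (adjusted p = 0.0652 in edgeR). Trim28 was at 86.2 ± 7.67 CPM (mean ± SD of 4) in K-Ctrl and at 100.03 ± 9.15 CPM in K-Setd2KO, a log2 fold change of 0.21 ± 0.12. Setdb1 was at 43.4 ± 2.25 and 57.4 ± 9.4 CPM, at 0.40 ± 0.14 with an adjusted p of 0.0891 in edgeR, and 0.0270 without K-Setd2KO replicate 2. Of 9 other KRAB zinc finger genes with a known role, 7 were tested and 1, Zfp568, was called lower (-0.58 ± 0.13, adjusted p = 0.0224 in edgeR). Zfp809, which silences retroviruses, and Zfp57, which protects imprints, were at -0.15 ± 0.12 and 0.38 ± 0.16 and did not pass. Zfp708 had 0 counts in all tumors.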

How the data were processed

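The authors deposited raw counts per gene for 8 tumors, 1 column each, with no normalization. The submitters' processing notes list STAR 2.5.2b, featureCounts 1.5.0-p1 and GRCm38.p4, the strand setting and treatment of reads that match several places are not given in the sources used here, and the kit was stranded poly(A) mRNA. Identifiers were matched to GENCODE M21 (48349 of 48709, 99.26%). Counts were filtered with filterByExpr, scaled by TMM and tested with edgeR 4.0.16 (robust quasi-likelihood, R 4.3.3), with Benjamini-Hochberg adjustment over 14929 genes, SE taken as the absolute log2 fold change over the square root of F, and a call at an adjusted p of 0.05. CPM used the TMM-scaled library size. DESeq2 1.42.0, limma voom 3.58.1, other scalings and filters, a replicate block, a sex term, GC and length offsets and leaving out each tumor were alternatives. No pair of tumors in a group agreed within sampling noise (at least 30.5 chi-square units per degree of freedom).

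Members, gene lists and tests were chosen with earlier results of these data known. Named genes were Setd2, called members, the 5 smallest p in each direction, the 10 highest by CPM, the smallest p in each cluster, members whose groups do not overlap, and called corepressors with Trim28 and Setdb1, and others were added after their values were seen. No protein table was at hand, so fingers and KRAB patterns were sought in translated GENCODE coding sequences and relatedness was taken from shared windows of 75 bases in place of protein alignments. Gene copies outside annotated transcripts were not searched. The engineered allele shared by both groups is not reported here.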

Additional observations from a re-analysis of the deposited data

Results flagged for a closer look

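In 4 of 88 groups of 4 tumors, a single tumor lay farther from the nearest other than Dixon's limit allows, where chance alone gives about 4.4. K-Setd2KO replicate 3 was the tumor in 3 of them: Zfp930 at 63.9 CPM with the next tumor at 21.9, Zfp956 at 17.2 CPM with the next at 6.63, and Zfp949 at 31.8 CPM with the next at 21.4. In the other, Zfp951 was at 5.66 CPM in K-Setd2KO replicate 2, while the nearest tumor of that group was at 0.554 CPM. The causes of these values were not tested.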

How the results depend on the processing

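No member was called higher under any alternative run. Members called lower numbered 1 in the edgeR fit (7.74% of all genes called lower) and 6 with DESeq2 (12.5%). They numbered 2 each with limma voom (7.11%), RLE factors (7.76%) and upper-quartile factors (7.9%). A replicate block gave 3 (6.28%): Zfp984, Zfp979 with adjusted p = 0.0411 and Zfp990 with adjusted p = 0.0396 (edgeR). Leaving out single tumors gave 0 to 2. There were 0 without K-Ctrl replicate 1 (4.46%), K-Ctrl replicate 2 (5.15%) or K-Setd2KO replicate 4 (5.67%). There were 2 without K-Ctrl replicate 4 (8.31%) or K-Setd2KO replicate 2 (7.97%), and 1 in the others (3.6% to 6.03%). Removing length and GC trends ended the call of Zfp984 (-1.68, adjusted p = 0.0505 in edgeR) and made one for Zfp931 (adjusted p = 0.0269). Leaving out K-Setd2KO replicate 2, the tumor in which Zfp951 was highest, also made a call for Zfp951. The other K-Setd2KO tumors were at 0.514, 0.554 and 0 CPM. Without replicate 2, Zfp951 passed the filter through its K-Ctrl tumors, so the call is no support. Same-numbered tumors correlated at -0.07, -0.03, 0.19 and -0.02, so the numbers do not pair the tumors. The median log2 fold change of members stayed negative, from -0.37 to -0.06. Members whose groups do not overlap, 7 at first, numbered 8 to 13 without single tumors, where 22.4% to 28.6% of all genes separated (20.3% at first): 13 without K-Ctrl replicate 4, 12 without K-Setd2KO replicate 3 and 11 without K-Setd2KO replicate 2.

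All genes called numbered 1897 in the edgeR fit, 3194 with DESeq2, 1237 with a sex term and 763 to 2058 without single tumors (938, 1126 and 763 without K-Ctrl replicates 1, 2 and 3, and 1011 without K-Setd2KO replicate 3). Corepressor genes called numbered 2, then 6 with DESeq2, 4 with limma voom (7.11% of all genes lower and 4.53% higher), 4 when 10 counts were required in every tumor (8.57% and 5.29%), 6 with length and GC trends removed and 1 to 5 without single tumors (1 without K-Ctrl replicates 1, 2 or 3 or K-Setd2KO replicates 1 or 3, 4 without K-Ctrl replicate 4 and 5 without K-Setd2KO replicate 2). Without single tumors, 3.6% to 8.31% of all genes were called lower and 1.49% to 5.67% higher. The sign of Setd2 turned to 0.10 with length and GC trends removed. Among uncalled genes near 0, Zfp945 turned to -0.0029 (limma voom) and -0.0055 (10 counts in every tumor), and Zfp946 to 0.10 (sex term) and 0.0061 (length and GC). Without single tumors, log2 fold changes ran from -0.12 to 0.63 for Zfp930, -0.080 to 0.26 for Zfp942, -0.10 to 0.34 for Zfp943, -0.18 to 0.19 for Zfp945, -0.30 to 0.085 for Zfp946, -0.053 to 0.23 for Zfp950 and -0.37 to 0.037 for Zfp994. Clusters of more than 1 gene numbered 7 with gaps of 2 Mb and of 5 Mb. Except where an alternative removes tumors or genes, the cause of a change was not tested.

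In the shallowest library 3 counts equal 0.513 CPM, and 20 of 63 members had too few counts to be tested. The cause of those low counts was not tested.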
